A study of Homo sapiens with 4 samples.

Results

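Steroid receptors and luminal transcription factors were followed in MCF12A cells, an established line of human breast epithelium that does not form tumours. The genes were chosen by name. They are the receptor genes *ESR1*, *PGR* and *NR3C1* and the factor genes *GATA3*, *FOXA1*, *ELF5*, *TFAP2A* and *TFAP2C*. Of these 8 genes, 6 were among the 16811 genes of the expression table and were all used, those with values below 10 included. *PGR* and *ELF5* are not in the table and were not analysed here. Every gene in the table had a value over 1 in at least 2 of the 4 libraries.

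In the edited cells the p2 promoter of *C1orf132*, the long noncoding RNA gene that hosts miR-29b2 and miR-29c, was cut out with CRISPR/Cas9. They are labelled as C1orf132 KO and the other group as wild type, with 2 libraries in each group, called E1 and E2 (edited) and W1 and W2 (wild-type) by their replicate numbers. The edited colonies were grown from single sorted cells, and the sources used here do not say which colony was sequenced, so an effect of the deletion and a feature of 1 clone cannot be told apart. The replicates are described as biological, but how far apart the cultures were kept is not said, so the p-values measure the spread between these libraries. Both groups were kept in the same medium, with hydrocortisone, EGF, insulin, cholera toxin and horse serum, so the glucocorticoid receptor had its ligand in both. The level of *C1orf132* itself is not analysed here, and the groups stand on the labels.

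Steroid receptors are transcription factors that are switched on by a hormone. Estrogen receptor alpha (*ESR1*) and the progesterone receptor (*PGR*) mark the hormone-sensing luminal cells of the breast, whereas the glucocorticoid receptor (*NR3C1*) is made in most cell types. FOXA1 opens chromatin for estrogen receptor alpha, and GATA3 is needed to form and keep luminal cells. ELF5 drives the milk-producing alveolar fate, and the AP-2 factors TFAP2A and TFAP2C act in both luminal cells and squamous epithelia.

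The values are normalised expression signals. They take transcript length and library size into account, so levels of different genes can be set side by side. A single read over 1 kb of transcript came to an estimated 0.113 in E1, 0.101 in E2, 0.123 in W1 and 0.113 in W2. A given value thus stood for 1.12 times as many reads in E2 as in E1, 0.925 times in W1 and 1.00 times in W2. This is not the depth of the libraries, since their summed values were unequal (1655437 in E1 and 1444644 in W2). All 13 basal mammary markers that were looked up (*KRT5*, *TP63* and others) were in the table, and so were 10 of 12 luminal surface and keratin markers. None of the 17 marker genes of unrelated lineages, such as blood, liver, muscle and endothelium, was in it.

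The 6 genes kept nearly the same order of levels in both groups. *TFAP2A* was the highest, followed by *NR3C1*, *TFAP2C* and *GATA3*, while *ESR1* and *FOXA1* were close to the bottom of the table. By the mean over the 4 libraries, *TFAP2A* stood at percentile 85.0 of all genes, *NR3C1* at 69.0, *TFAP2C* at 50.8, *GATA3* at 43.5, *ESR1* at 13.0 and *FOXA1* at 11.9. In wild-type cells each gene was clear of the next by all libraries down to *GATA3* over *ESR1* (2.69-fold by the means), and the values of *ESR1* and *FOXA1* overlapped. In edited cells *TFAP2C* and *GATA3* overlapped (1.02-fold), and *ESR1* was below *FOXA1* in both libraries.

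**Figure D1:**
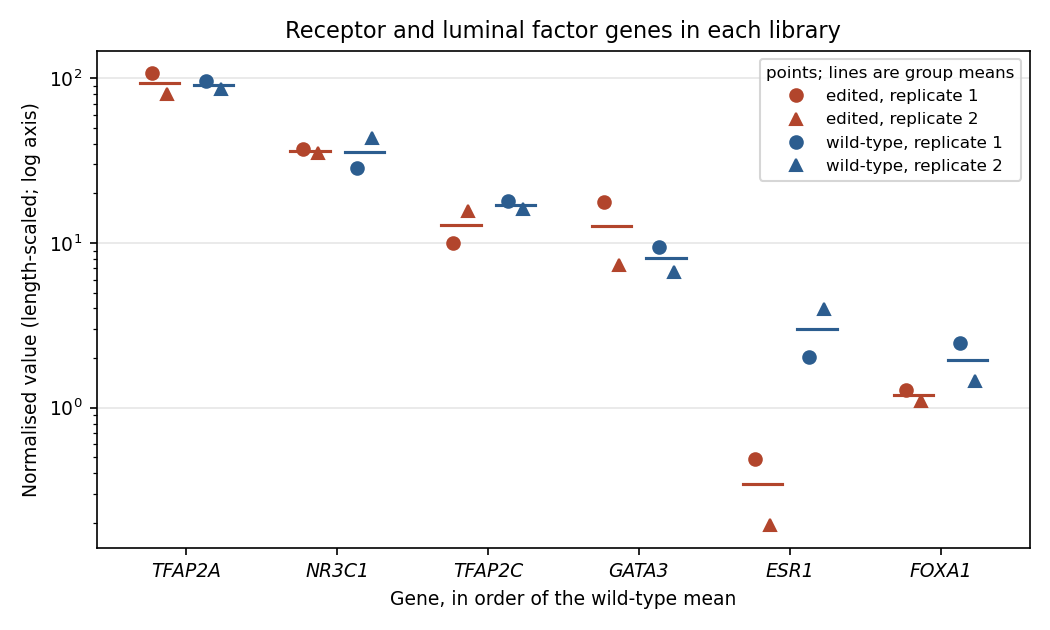
Normalised value (length-scaled, log axis) of the 6 listed genes in each library, ordered by the wild-type mean. Circles are replicate 1 (E1, W1), triangles replicate 2 (E2, W2) and short lines group means. *ESR1* is at 0.490 in E1, 0.193 in E2, 2.04 in W1 and 3.96 in W2, while the groups overlap for *TFAP2A*, *NR3C1* and *GATA3*.

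The groups were set against each other by limma, fitted to log2(value + 1) of all 16811 genes. A gene was taken to differ at an adjusted p (Benjamini-Hochberg) under 0.05. None of the 6 genes passed (0 of 6, limma), beside 4.73% of all genes tested, 1.33% higher and 3.4% lower in edited cells. At an unadjusted p under 0.05 it was 1 of 6, beside 29.2% of all genes. The median log2 fold change of the 6 genes was -0.19 and that of all genes was 0.01. In 3 of 6 genes the values of the groups did not overlap, each with the edited libraries lower, beside 30.2% of all genes lower in this way, 31.4% higher and 61.6% in either direction. The gene with an unadjusted p under 0.05 is *ESR1*, which is also 1 of these 3. Both of its edited values are under 1, so it is in the table through the wild-type libraries alone and had to be lower. With either wild-type library left out, no gene of the whole table passed the threshold, so the calls named below rest on both. An exact permutation test of 2 against 2 libraries cannot go below p = 0.333, so single genes rest on the spread that limma shares across genes.

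**Figure D2:**
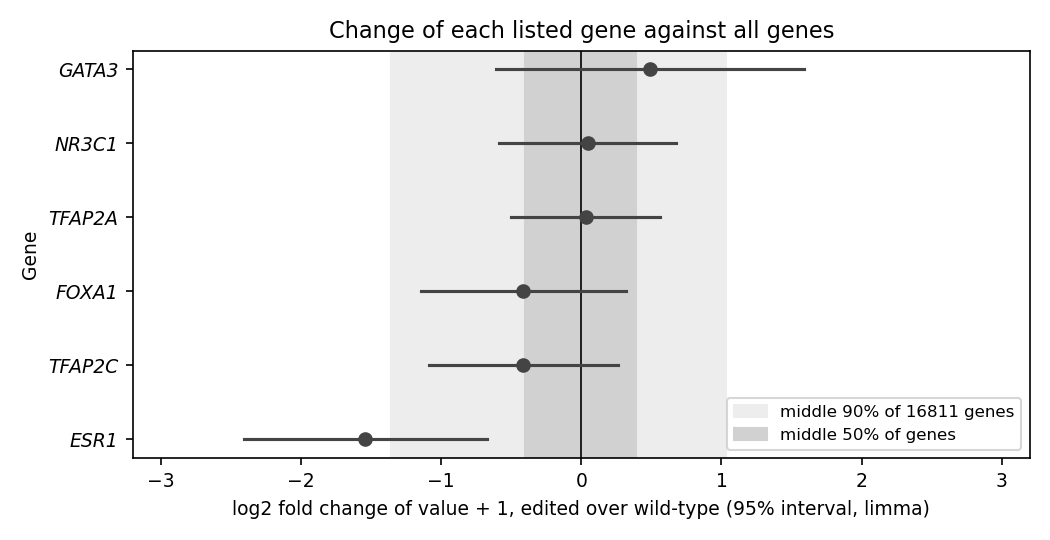
Log2 fold change of value + 1 (edited over wild-type) of the 6 genes, with 95% intervals from limma. The light band holds the middle 90% of all 16811 genes and the dark band the middle 50%. The interval of *ESR1* (-2.41 to -0.67) is the one that leaves out 0, and its point lies below the light band.

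*ESR1*, the gene for estrogen receptor alpha, lies on chromosome 6 from 151656672 to 152129619 (GRCh38.p14). It was listed at 0.490 in E1, 0.193 in E2, 2.04 in W1 and 3.96 in W2. Both edited libraries were below both wild-type libraries. The replicates differed 2.54-fold in edited and 1.94-fold in wild-type cells. On the canonical transcript of 6327 bases these values correspond to about 27 and 12 reads in the edited and about 105 and 221 reads in the wild-type libraries.

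*ESR1* averaged 0.341 ± 0.210 (SD, n = 2) over the E libraries and 3.0 ± 1.36 (SD, n = 2) over the W libraries, so the edited cells held 11.4% of the wild-type level. On the log2(value + 1) scale, which understates the change of low genes, the difference was -1.54 (standard error 0.34, 95% interval -2.41 to -0.67). It missed the threshold (adjusted p = 0.0663 from limma). In bulk RNA, fewer cells with *ESR1* and less *ESR1* RNA per cell cannot be told apart, which holds for each gene here. The wild-type mean was 8.78 times the edited mean. This ratio was 15.6 without E1, 6.11 without E2, 11.6 without W1 and 5.97 without W2.

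*ESR1* is in the table through the wild-type libraries alone, since both of its edited values are under 1. The table holds 715 such genes. They had to be lower in edited cells to be in it this way, and 20.8% of them passed the threshold. Its last 7933 bp (152121687 to 152129619 on chromosome 6, GRCh38.p14) overlap *SYNE1*, which runs on the opposite strand. The sources used here do not say that strand was kept, so reads of the shared part cannot be assigned. *SYNE1* was at 3.14 in edited and 5.25 in wild-type cells by the means (log2 fold change -0.56, adjusted p = 0.28 from limma).

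*NR3C1*, the gene for the glucocorticoid receptor, lies on chromosome 5 from 143277931 to 143435512 (GRCh38.p14). Its value was 37.2 in E1, 35.3 in E2, 28.4 in W1 and 43.4 in W2. Both edited libraries lay between the wild-type libraries, whose spread (1.53-fold) was wider than the difference of the means. The E libraries averaged 36.3 ± 1.32 (SD, n = 2) and the W libraries 35.9 ± 10.6 (SD, n = 2). The log2 fold change of 0.04 had a standard error of 0.25 and a 95% interval of -0.59 to 0.67 (adjusted p = 0.927 from limma), so changes within these bounds are compatible with the values.

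The RNA levels of *NR3C1* and *ESR1* were set against each other in each library. Within a library, *NR3C1* was 75.9 (E1), 183 (E2), 14.0 (W1) and 11 (W2) times as high as *ESR1*, so the ratio was higher in both edited libraries. Since the means of *NR3C1* were nearly equal, this restates the low edited values of *ESR1* and is no separate result. Receptor protein was not measured here. *PGR*, which estrogen receptor alpha switches on in the breast, gives no value for this comparison.

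*GATA3* lies on chromosome 10 from 8045333 to 8075198 (GRCh38.p14). It was at 17.8 in E1, 7.36 in E2, 9.48 in W1 and 6.63 in W2. E1 stood above the other 3 libraries, while E2 lay between the wild-type libraries. The edited replicates differed 2.42-fold, a larger gap on the log2 scale than in 95.8% of all genes, and the wild-type replicates differed 1.43-fold. The E libraries averaged 12.6 ± 7.41 (SD, n = 2) and the W libraries 8.05 ± 2.02 (SD, n = 2) (log2 fold change 0.49, standard error 0.43, 95% interval -0.61 to 1.59, adjusted p = 0.496 from limma). The log2 fold change was 1.08 without E2 and -0.10 without E1, so its direction rested on 1 library.

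*FOXA1*, on chromosome 14 from 37589552 to 37595249 (GRCh38.p14), was low in every library. It was at 1.27 in E1, 1.10 in E2, 2.46 in W1 and 1.44 in W2, from an estimated 38 to 70 reads per library. The edited libraries were below the wild-type libraries, but the gap between the groups was smaller than that between the wild-type replicates. Its E libraries averaged 1.18 ± 0.124 (SD, n = 2) and the W libraries 1.95 ± 0.718 (SD, n = 2) (log2 fold change -0.41, standard error 0.29, 95% interval -1.14 to 0.32, adjusted p = 0.388 from limma).

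*TFAP2A*, on chromosome 6 from 10396677 to 10419659 (GRCh38.p14), was the highest of the 6 genes in every library. Its value was 107 in E1, 80.8 in E2, 96.3 in W1 and 86.4 in W2. The wild-type libraries lay between the edited ones. The E libraries averaged 94.1 ± 18.8 (SD, n = 2) and the W libraries 91.3 ± 7.01 (SD, n = 2) (log2 fold change 0.03, standard error 0.21, 95% interval -0.50 to 0.56, adjusted p = 0.941 from limma).

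*TFAP2C*, on chromosome 20 from 56629306 to 56639283 (GRCh38.p14), was at 9.95 in E1, 15.7 in E2, 18.0 in W1 and 16.1 in W2. E1 stood apart on the low side, and E2 was just under the lower wild-type library. The E libraries averaged 12.8 ± 4.07 (SD, n = 2) and the W libraries 17.1 ± 1.36 (SD, n = 2) (log2 fold change -0.42, standard error 0.27, 95% interval -1.09 to 0.26, adjusted p = 0.350 from limma). Within a library, *TFAP2A* was 10.8 (E1), 5.14 (E2), 5.34 (W1) and 5.37 (W2) times as high as *TFAP2C*. E1 thus stood apart in the balance of the AP-2 genes, while E2 was close to the wild-type libraries.

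Since the deleted promoter belongs to the host gene of miR-29b2 and miR-29c, the 3 prime UTRs of the 6 genes were searched for the miR-29 seed match. MicroRNAs find their targets mainly through the seed, bases 2 to 8, which all miR-29 members share. The mature sequences (RefSeq, GRCh38.p14) are shown 5 prime to 3 prime with the seed in capitals.
hsa-miR-29b-3p: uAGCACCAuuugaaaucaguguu
hsa-miR-29c-3p: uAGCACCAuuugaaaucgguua

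The reverse complement of the seed, TGGTGCT, was looked for on the transcribed strand of the canonical transcripts of GENCODE version 44. *NR3C1* held 3 matches in a UTR of 3955 bases and *TFAP2C* held 1 in 1270 bases. *ESR1* (4308 bases), *GATA3* (1175), *FOXA1* (1813) and *TFAP2A* (1740) held 0. Over 11832 UTRs of listed genes, 16.3% had a match. Among UTRs of similar length (within 1.5-fold) the share was 30.9% for *NR3C1* and 13.5% for *TFAP2C*. The stretches are shown because both genes carry letters that miR-29 could pair with, with the match in capitals and positions counted from the first base after the stop codon.
*NR3C1*, bases 678 to 684: tgaaaatgggtTGGTGCTtctaacctgat
*NR3C1*, bases 2008 to 2014: agacaggaaggTGGTGCTtacatccttaa
*NR3C1*, bases 2742 to 2748: gtgctatatggTGGTGCTgtttgaaagca
*TFAP2C*, bases 290 to 296: ttctctgaaagTGGTGCTataagttttag

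Neither gene with a match passed the threshold, with log2 fold changes of 0.04 for *NR3C1* and -0.42 for *TFAP2C* as given above. A match of letters is a description of the sequence and does not show that the site is used.

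The genes of the same families were compared next. Of 15 other GATA, FOXA, ELF and AP-2 genes, 7 were in the table, and 2 passed the threshold, both lower in edited cells. Over all genes 3.4% were lower past it. The median over the 7 was -0.94 on the log2 scale, beside 0.01 over all genes. The genes that passed, *ELF3* and *EHF*, code for ETS factors of the same branch as *ELF5* that are made in surface and glandular epithelia. *ELF3* was at 50.7 in E1, 35.1 in E2, 681 in W1 and 633 in W2. *EHF* was at 0.470 in E1, 0.315 in E2, 87.1 in W1 and 134 in W2. It entered the table through the wild-type libraries alone and so had to be lower, which bears on the count and the median.

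For both genes all edited values were far below all wild-type values. *ELF3* fell to 6.52% of the wild-type mean (log2 fold change -3.93, standard error 0.23, adjusted p = 0.00632 from limma) and *EHF* to 0.354% (-6.30, standard error 0.27, adjusted p = 0.00450). The other 5 did not pass. *ELF1* was at 22.9 in E1, 28.4 in E2, 49.6 in W1 and 50.3 in W2 (log2 fold change -0.94, adjusted p = 0.0568). *GATA6* was at 1.59 in E1, 2.04 in E2, 5.12 in W1 and 4.11 in W2 (log2 fold change -0.99, adjusted p = 0.0783), and *GATA2*, *ELF2* and *ELF4* ranged from 0.13 to -0.45.

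**Figure D3:**
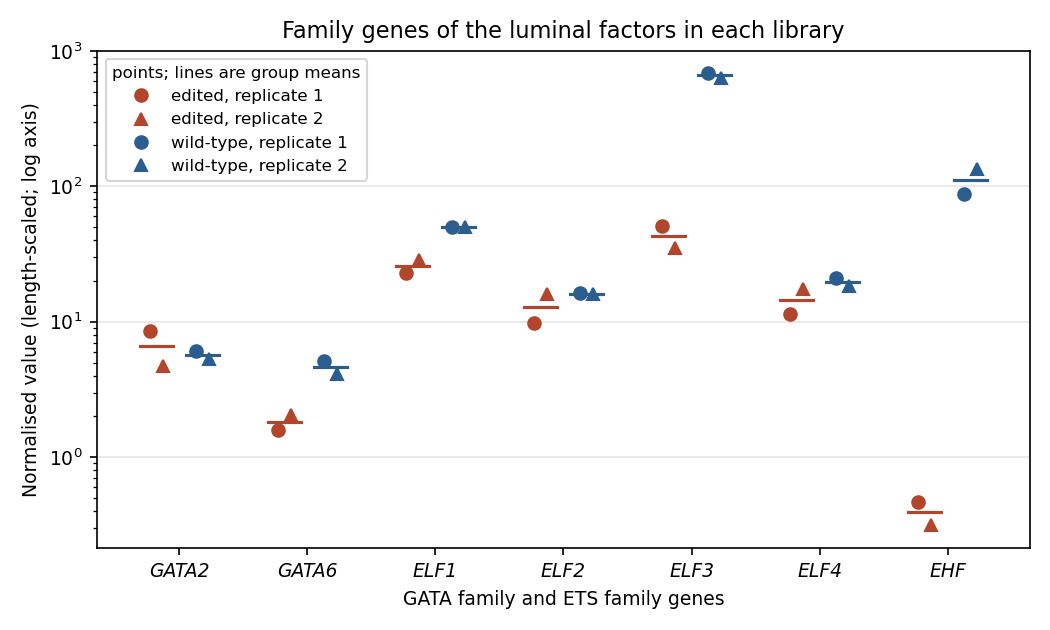
Normalised value (length-scaled, log axis) of the 7 listed GATA and ETS family genes in each library. Circles are replicate 1 (E1, W1), triangles replicate 2 (E2, W2) and short lines group means. *ELF3* and *EHF* are separated by more than 10-fold between the groups, while *GATA2* overlaps.

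Other transcription factors of luminal cells that differed were lower in edited cells. Of 14 genes, 12 were in the table and 4 passed, all lower in edited cells, beside 3.4% of all genes lower past the threshold. They are *EHF* and *ELF3* again, with *STAT5A* and *BCL11A*, and the median over the 12 was -0.30. *EHF* and *CITED1* are in the table through the wild-type libraries alone and had to be lower. This bears on the count and the median. *STAT5A*, which carries the prolactin signal into the nucleus, was at 2.32 in E1, 4.96 in E2, 16.9 in W1 and 14.5 in W2 (log2 fold change -1.90, standard error 0.33, adjusted p = 0.0467 from limma). *BCL11A*, a zinc finger factor of mammary progenitors, was at 6.41 in E1, 7.12 in E2, 32.3 in W1 and 33.4 in W2 (log2 fold change -2.12, standard error 0.19, adjusted p = 0.0149). The call of *STAT5A* was lost with a pseudocount of 0.1, with quantile normalization and with any 1 library left out, and that of *BCL11A* without E1.

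The rest of these factors did not pass. *TRPS1*, a GATA-type repressor, had nearly equal values, 10.2 in E1, 11.6 in E2, 10.7 in W1 and 11.4 in W2 (log2 fold change -0.02, adjusted p = 0.961 from limma). *TBX3*, a factor of hormone-sensing cells, was at 6.25 in E1, 6.92 in E2, 3.44 in W1 and 3.16 in W2 (log2 fold change 0.82, adjusted p = 0.0861). *XBP1*, *ID2*, *RUNX1* and *CEBPB* had overlapping groups. *STAT5B* was lower without overlap, at 15.6 in E1, 18.4 in E2, 22.5 in W1 and 22.5 in W2 (log2 fold change -0.39, adjusted p = 0.236 from limma). So was *CITED1*, at 0.951 in E1, 0.509 in E2, 1.64 in W1 and 1.14 in W2 (-0.47, adjusted p = 0.333).

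Of the estrogen-related receptors *ESRRA*, *ESRRB* and *ESRRG*, *ESRRA* was in the table. This receptor binds no known natural estrogen and acts on genes of energy metabolism. It was at 144 in E1, 169 in E2, 205 in W1 and 150 in W2, and the groups overlapped (log2 fold change -0.17, standard error 0.22, adjusted p = 0.655 from limma).

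Steroid receptors need chaperones to hold the ligand pocket open and coactivators or corepressors to act on genes. All 16 coregulator and chaperone genes were in the table, and 0 passed the threshold (limma; 4 had an unadjusted p under 0.05), with a median log2 fold change of 0.11. Over all genes the shares were 4.73% and 29.2%. *HSP90AB1*, the highest of the list, was at 1330 in E1, 1213 in E2, 1017 in W1 and 803 in W2 (log2 fold change 0.49, adjusted p = 0.211 from limma). *STUB1*, *HSP90AA1*, *PTGES3*, *FKBP5* and *FKBP4* had log2 fold changes from 0.45 to 0.68 with adjusted p of 0.115 to 0.257 (limma). *HSP90AB1* is named as the highest of the list, and these others were picked after their values were seen. Over the 16 genes, both edited libraries were above both wild-type libraries in 7 and below them in 3. Over all genes the shares were 31.4% and 30.2%.

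The p160 coactivators did not pass. *NCOA2* was at 4.59 in E1, 6.04 in E2, 9.94 in W1 and 13.9 in W2 (log2 fold change -1.02, adjusted p = 0.0813), and *NCOA3* at 12.5 in E1, 16.4 in E2, 23.9 in W1 and 30.9 in W2 (-0.88, adjusted p = 0.0886). *NCOA1* was at 3.28 in E1, 3.82 in E2, 3.03 in W1 and 4.15 in W2, with overlapping groups. *EP300*, *CREBBP*, *NCOR1* and *KMT2D* had overlapping groups, with log2 fold changes from -0.10 to 0.16.

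Of 17 genes that estrogen receptor alpha is known to switch on, 11 were in the table. None passed (0 of 11, limma; 2 had an unadjusted p under 0.05), beside 4.73% of all genes (29.2% unadjusted), with 5 positive and 6 negative log2 fold changes and a median of -0.04. *GREB1*, a coactivator and classic target, was at 2.10 in E1, 2.19 in E2, 2.42 in W1 and 4.64 in W2 (log2 fold change -0.48, adjusted p = 0.362 from limma). *CCND1*, the cyclin that moves cells through G1, was at 141 in E1, 99.6 in E2, 60.6 in W1 and 38.4 in W2, with no overlap (log2 fold change 1.28, adjusted p = 0.0711). *NRIP1*, a corepressor that also sits in the coregulator list, was at 7.76 in E1, 10.9 in E2, 17.5 in W1 and 17.1 in W2 (-0.84, adjusted p = 0.0915). *CA12*, the highest of the list in wild-type cells, and *RARA* had overlapping groups, with *RARA* at 15.4 to 16.4 in the 4 libraries. The classic targets *TFF1* and *TFF3* were not in the table.

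Of 16 genes that the glucocorticoid receptor is known to switch on, all were in the table, and 13 did not pass. In edited cells 1 was higher and 2 were lower past the threshold, beside 1.33% and 3.4% of all genes, and the median log2 fold change was -0.13. *TSC22D3*, the glucocorticoid-induced leucine zipper gene, was at 55.4 in E1, 43.9 in E2, 153 in W1 and 131 in W2 (log2 fold change -1.50, standard error 0.20, adjusted p = 0.0318 from limma). *BIRC3*, an inhibitor of cell death that NF-kB also drives, was at 2.02 in E1, 5.67 in E2, 32.2 in W1 and 58.0 in W2 (-3.30, standard error 0.47, adjusted p = 0.0347). *DUSP1*, a phosphatase that stops MAP kinases, was higher, at 183 in E1, 378 in E2, 56.0 in W1 and 32.5 in W2 (2.60, standard error 0.43, adjusted p = 0.0433), a call that was lost with a pseudocount of 0.1. The calls of *TSC22D3* and *DUSP1* were lost with any 1 library left out, and that of *BIRC3* without E1.

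Other targets of this receptor did not pass. *FKBP5* was at 205 in E1, 173 in E2, 104 in W1 and 148 in W2 (log2 fold change 0.60, adjusted p = 0.173 from limma). *PER1*, *SGK1* and *ZBTB16* had overlapping groups, with log2 fold changes from -0.20 to -0.08. *NFKBIA* (-1.93, adjusted p = 0.0704 from limma), *TNFAIP3* (-2.31, 0.246), *CEBPD* (-1.04, 0.214) and *KLF9* (-0.63, 0.108) were lower without overlap. Over the 16 targets, both edited libraries were below both wild-type libraries in 6 and above them in 3, beside 30.2% and 31.4% of all genes. Some targets differed widely between replicates, in both groups. *ANGPTL4*, a lipase inhibitor, was at 18.1 in E1, 589 in E2, 51.3 in W1 and 9.69 in W2. *MT2A*, the highest gene of the list, was at 1964 in E1, 7643 in E2, 3275 in W1 and 1057 in W2. *ERRFI1* was at 50.02 in E1, 226 in E2, 138 in W1 and 26.3 in W2.

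**Figure D4:**
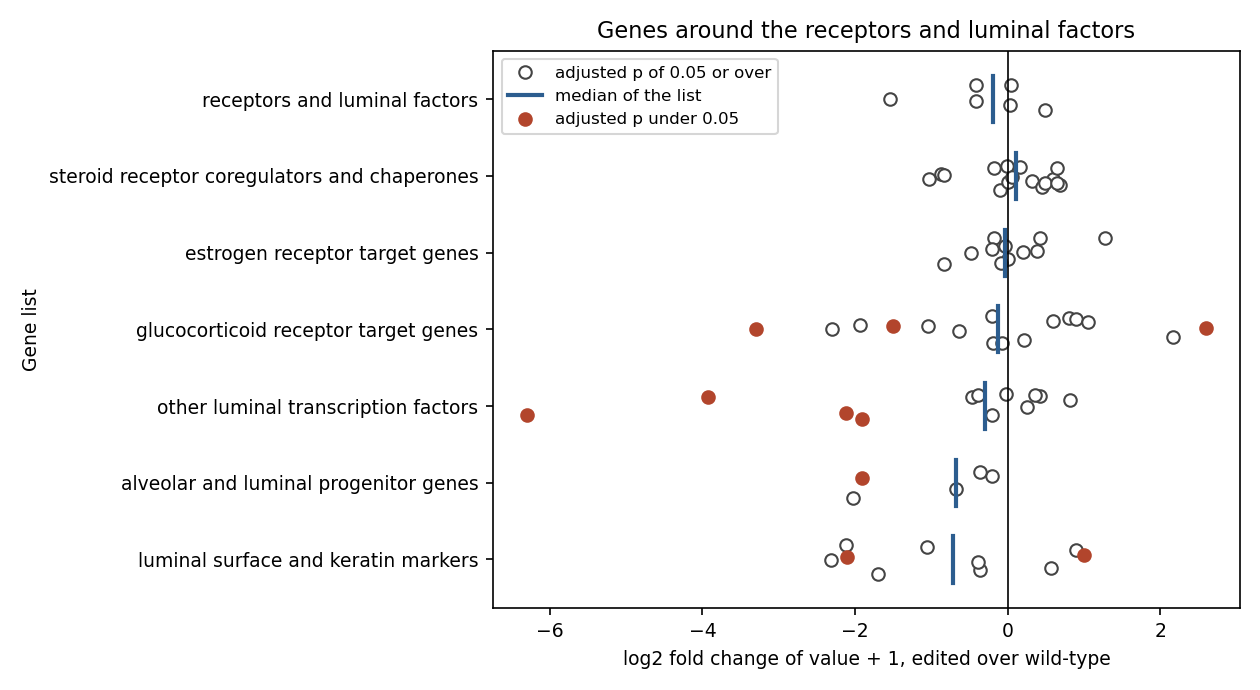
Log2 fold change of value + 1 (edited over wild-type, limma) of each listed gene, by list. Filled points passed an adjusted p of 0.05, open points did not, vertical scatter carries no value and short lines are list medians. The receptors and luminal factors, the coregulators and the estrogen receptor targets have no filled point, and the glucocorticoid receptor targets have them on both sides of 0.

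Luminal differentiation genes downstream of these factors were looked at by the same fit. Of 12 alveolar and luminal progenitor genes 5 were in the table, all with a negative log2 fold change (median -0.68). The median is that of *TNFRSF11A*, at 0.508 in E1, 0.918 in E2, 1.57 in W1 and 1.88 in W2. Both edited values of *TNFRSF11A* are under 1, so it is in the table through the wild-type libraries alone and had to be lower. Of the 5 genes 1 passed, *STAT5A* again, beside 3.4% of all genes lower past the threshold. *SLPI*, a secreted protease inhibitor and the highest of the list, was at 161 in E1 and 805 in E2, on either side of the wild-type libraries (437 and 399). *ALDH1A3*, an aldehyde dehydrogenase of luminal progenitors, was at 51.3 in E1, 31.0 in E2, 234 in W1 and 117 in W2 (log2 fold change -2.02, adjusted p = 0.0568 from limma). Milk protein genes of the list, such as *CSN2* and *LALBA*, were not in the table.

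Luminal surface and keratin markers had 1 gene higher and 1 lower past the threshold among the 10 in the table, beside 1.33% and 3.4% of all genes. Their median log2 fold change was -0.72. *KRT8*, a keratin of simple epithelia, was at 378 in E1, 365 in E2, 194 in W1 and 175 in W2 (log2 fold change 1.01, standard error 0.17, adjusted p = 0.0450 from limma). *ERBB3*, a receptor of the EGF receptor family, was at 6.28 in E1, 8.94 in E2, 42.5 in W1 and 29.5 in W2 (-2.10, standard error 0.28, adjusted p = 0.0307). *KRT7*, the highest of the list, had overlapping groups (0.56, adjusted p = 0.489 from limma). So did *KRT18* (0.89, adjusted p = 0.340) and *MUC1* (-0.36, adjusted p = 0.501). *EPCAM* (-2.31, adjusted p = 0.0522 from limma), *KRT19* (-2.11, adjusted p = 0.0569) and *CLDN4* (-1.69, adjusted p = 0.0672) were lower and did not pass. *CD24* (-1.05, adjusted p = 0.119 from limma) and *ERBB2* (-0.38, adjusted p = 0.235) were also lower and did not pass. *KRT19* is in the table through its wild-type values alone and had to be lower. Both edited libraries were below both wild-type libraries in 6 of the 10 genes and above them in 1, beside 30.2% and 31.4% of all genes. The call of *KRT8* was lost with a pseudocount of 0.1, with cyclic loess and without the variance trend, and those of *KRT8* and *ERBB3* with any 1 library left out.

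Markers of other cell states differed in the same comparison. All 13 basal mammary markers had a negative log2 fold change (median -2.37), and 4 of them fell past the threshold, beside 3.4% of all genes. These were *TP63* (-2.65, adjusted p = 0.0396 from limma), *CDH3* (-2.61, adjusted p = 0.0171), *COL17A1* (-1.75, adjusted p = 0.0488) and *DSG3* (-3.35, adjusted p = 0.0161). The summed value of the 13 genes ranged from 5208 to 8298 in the edited and from 15701 to 23927 in the wild-type libraries. *KRT5* and *KRT17* held the largest parts of it in every library. Of 10 fibroblast and mesenchymal markers 4 were in the table, with *VIM* higher (2.16, adjusted p = 0.0295 from limma) and *COL1A1* lower (-2.06, adjusted p = 0.0490) past the threshold. Over all genes 1.33% were higher and 3.4% lower past it. With E1 left out none of these 6 calls held, with E2 left out those of *TP63*, *CDH3* and *DSG3* did, and that of *COL1A1* was lost in 6 of 10 alternatives with every library kept. The summed value of the 4 mesenchymal genes was 855 in E1, 1439 in E2, 335 in W1 and 246 in W2. Most of it was *VIM*, with 824 in E1, 1215 in E2, 257 in W1 and 194 in W2, so the sum mainly restates that gene. The defining genes *COL1A2*, *COL3A1*, *PDGFRA* and *PDGFRB* were not in the table. The part of these shifts in the values of *ESR1*, *ELF3*, *EHF* and the other genes above was not tested.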

How the data were processed

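RNA-seq was made from poly(A)-selected RNA with single-end reads of 75 bases. The submitters' processing notes name HISAT2, Salmon and the build hg38, with no versions. The annotation, the normalization and the filter are not given in the sources used here. The authors deposited 1 table of an expression signal, scaled for length and between libraries, with 1 column per library. Values are not whole counts, and no count model was fitted. The value of 1 read was estimated from genes with 1 transcript of under 130 bases and scaled by 1.13 for longer genes. In these short genes 191 of 206 values of up to 3 reads lay within 5% of a whole multiple of 1 step. Read numbers use the canonical transcript, are approximate and cover counting error only.

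Groups and replicate numbers came from the sample titles. All genes were fitted with limma 3.58.1 (lmFit, eBayes with trend) in R 4.3.3 on log2(value + 1), with Benjamini-Hochberg adjustment over 16811 genes and no filter on low values. The test was checked on simulated data. The members and gene lists were chosen with earlier results of these data known. The text names all members, every list gene past the threshold, and the highest wild-type gene of a list; other list genes were chosen after their values were seen. Gene positions are RefSeq's on GRCh38.p14. Canonical transcripts are those of GENCODE version 44 mapped to GRCh37, and no coordinates were taken from them. Python 3.11.15, numpy 2.4.6, pandas 2.3.3 and matplotlib 3.10.9 were used.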

Additional observations from a re-analysis of the deposited data

How the results depend on the processing

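None of the 6 receptor and factor genes passed an adjusted p of 0.05 under any alternative run. The adjusted p of *ESR1* ranged from 0.0598 to 0.256 (limma) and its log2 fold change from -2.82 with a pseudocount of 0.1 to -0.57 with a pseudocount of 5. The genes near 0 turned sign. *NR3C1* was -0.0726 with equal library totals, -0.0259 with cyclic loess and from -0.25 to 0.34 with 1 library left out. *TFAP2A* was -0.0879 with equal totals, -0.0890 with quantile normalization, -0.15 with cyclic loess and from -0.17 to 0.23 with 1 library left out. *GATA3* was from -0.10 to 1.08 with 1 library left out. Equal totals moved the median of all genes by -0.10. The count of all genes passing was 795. It was 517 with a pseudocount of 0.1, 125 with the replicate block and 0 at an adjusted p of 0.001 (4909 had an unadjusted p under 0.05). With 1 library left out it was from 0 to 248: 0 without either wild-type replicate (4169 and 2796 unadjusted), 52 without edited replicate 1 and 248 without edited replicate 2, where the lone library was taken to vary like the other group. The causes of these changes were not tested. The block was not used in the report, since the replicate differences of the groups correlated at -0.0927 across genes, a hint and no pairing.

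At an adjusted p of 0.001 the counts of the gene families, the other luminal factors, the glucocorticoid receptor targets, the alveolar genes and the luminal markers were each 0. With 1 library left out they were 0 to 2, 0 to 3, 0 to 3, 0 to 0 and 0 to 0, and 0 in all 5 lists without either wild-type replicate. With the replicate block 2 other luminal factors, 1 glucocorticoid receptor target and 1 luminal marker passed. Of the 15 list genes called in the report, 5 passed with the block (*ELF3*, *EHF*, *BIRC3*, *CDH3* and *DSG3*), and so did 3 others (*ALDH1A3*, *EPCAM* and *KRT14*). For the alveolar genes 0 passed with a pseudocount of 0.1, and 2 with equal totals or cyclic loess. For the luminal markers 1 passed with a pseudocount of 0.1, with cyclic loess and without the variance trend. *ELF3* and *EHF* passed in all 10 alternatives that kept every library and with either edited replicate left out. *ESR1* and *FOXA1* have means under 10 and so gave no value with that filter.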

Other observations

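The chromosomes of the 6 genes differed in their own medians. On chromosome 14, the 390 listed protein-coding genes had a median log2 fold change of -0.47, beside 0.02 over all 11787 matched protein-coding genes. *FOXA1* (-0.41) stood in the middle of that chromosome, with 55.9% of its genes below it, and 8 of its 10 nearest listed neighbours were negative. On chromosome 5 the median was 0.29 over 535 genes, and 34.0% of them lay below *NR3C1*. *ESR1* lay far below its surroundings, but it is in the table through the wild-type libraries alone and had to be lower. The median of chromosome 6 was 0.14 over 533 genes, 3.75% of them lay below *ESR1*, and its 10 nearest listed neighbours had a median of 0.30. *TFAP2C* (-0.42) also lay below its 10 neighbours, whose median was 0.42, and 17.5% of the 320 genes of chromosome 20 were below it. None of the 10 neighbours of any of the 6 genes passed an adjusted p of 0.05 in limma. DNA copy number was not measured, and its part in these values was not tested.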
